A study of Rattus norvegicus with 2 samples.

Results

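The genes described here encode the machinery that sets the calcium level and the membrane potential of vascular smooth muscle cells (VSMCs), and they were chosen by name. They are Cacna1c, Kcnma1, Kcnmb1, Kcna5, Ryr2, Itpr1, Atp2a2, Pln and Atp2b4, which makes 9 of the 32623 genes listed in the data. Of these, 8 had at least 1 unique molecular identifier (UMI, a tag that marks 1 captured RNA molecule), and Kcna5 had 0. Carotid arteries of male SD rats were compared by single-cell RNA sequencing on the 10x Genomics platform, 28 days after a balloon catheter had been used to strip and stretch the right artery, when the labels give an age of 12 weeks. The control library holds the untreated left arteries and the case library the injured right arteries, each pooled from the same 2 rats. With 1 library per group no test was possible, so intervals are exact, have a level of 95% and cover counting error only.

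In a resting artery, calcium that enters through the voltage-gated L-type channel, or leaves the sarcoplasmic reticulum through inositol trisphosphate receptors, activates contraction. Ryanodine receptors also release calcium from the reticulum. Potassium channels oppose contraction by hyperpolarizing the membrane, and the calcium pumps of the reticulum and of the plasma membrane clear the calcium again. Some of these genes are counted as part of the contractile programme that smooth muscle cells can lose when they change phenotype after injury.

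The control library held 3321 barcodes with a median of 5981 UMIs, and the case library 5656 barcodes with a median of 4778. After filtering, 2742 and 4930 cells were kept, and 21 barcode sequences occurred in both libraries. A cell was called VSMC when at least 0.6% of its UMIs came from Acta2, Tagln, Cald1, Myl9, Myh11 and Cnn1, at least 3 of these were found, and it met the limit of no other class; no gene described here was used for this. The gate took 1554 control cells (56.7% of those kept) and 2665 case cells (54.1%), with 13506058 and 15317826 UMIs. All 6 markers were found in both libraries, and they made up a median of 2.32% of the UMIs of a control VSMC and 1.92% of a case VSMC. Of the gated cells, 8.75% in the control library and 6.68% in the case library lay within 1.5 times the limit. The median depth of a gated VSMC was 9500 UMIs in the control library and 5462 in the case library, and 501 control and 112 case cells had under 2000 UMIs. When all kept cells were clustered without the channel and pump genes, the control VSMCs lay mostly in clusters 4 (698 cells), 6 (274 cells) and 5 (229 cells), and the case VSMCs in clusters 0 (1382 cells) and 1 (964 cells). Cluster 6 had a median of 487 UMIs and haemoglobin genes among its leading genes. A cluster made mostly of 1 library may be that library and not a cell state, so values within clusters are given beside the pooled ones below.

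Levels are UMIs per 1000000, summed over the cells of a class (CPM). They are compared between cell classes and libraries for 1 gene at a time. Ryr2, Kcnmb1, Pln and Kcnma1 were the genes whose level in VSMCs stood farthest above that in fibroblasts in both libraries. Ryr2, the ryanodine receptor of the sarcoplasmic reticulum, had 49.2 CPM in control VSMCs against 0.496 in control fibroblasts, a 99.3-fold difference that rests on 4 UMIs in fibroblasts. In the case library the same difference was 26.2-fold, on 15 fibroblast UMIs. Kcnmb1, the beta subunit that makes the large-conductance calcium-activated potassium channel more sensitive to calcium, was 57.3-fold higher in control VSMCs and 38.6-fold higher in case VSMCs. These folds rest on 6 control and 10 case fibroblast UMIs. Pln, which encodes phospholamban, the inhibitor of the reticulum calcium pump, was 31.8-fold and 22.8-fold higher. Kcnma1, the pore-forming subunit of the same potassium channel, was 18.7-fold and 17.7-fold higher.

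The plot of levels by class shows that the remaining genes were shared with other cells. Atp2b4, a calcium pump of the plasma membrane, was 8.73-fold higher in VSMCs than in fibroblasts of the control library, but endothelial cells had 392 CPM against 291 CPM in VSMCs. In the case library the order was the reverse, with 243 CPM in endothelial cells and 333 CPM in VSMCs, which were 1.37-fold higher. Itpr1, the type 1 inositol trisphosphate receptor, had 198 CPM in control VSMCs and 177 CPM in control endothelial cells, values whose ratio had an interval that included 1 (log2 0.16, from -0.16 to 0.51). Atp2a2, which encodes the calcium pump SERCA2 of the reticulum, was found in all 4 classes, with control VSMCs 1.98-fold above fibroblasts and 1.62-fold above macrophages. Cacna1c, the pore of the L-type channel, was 2.95-fold higher in control VSMCs than in control fibroblasts and 3.28-fold in the case library. It had 0 UMIs in the 58 control endothelial cells, which puts VSMCs at least 3.55-fold higher, against 3 UMIs.

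**Figure D1:**
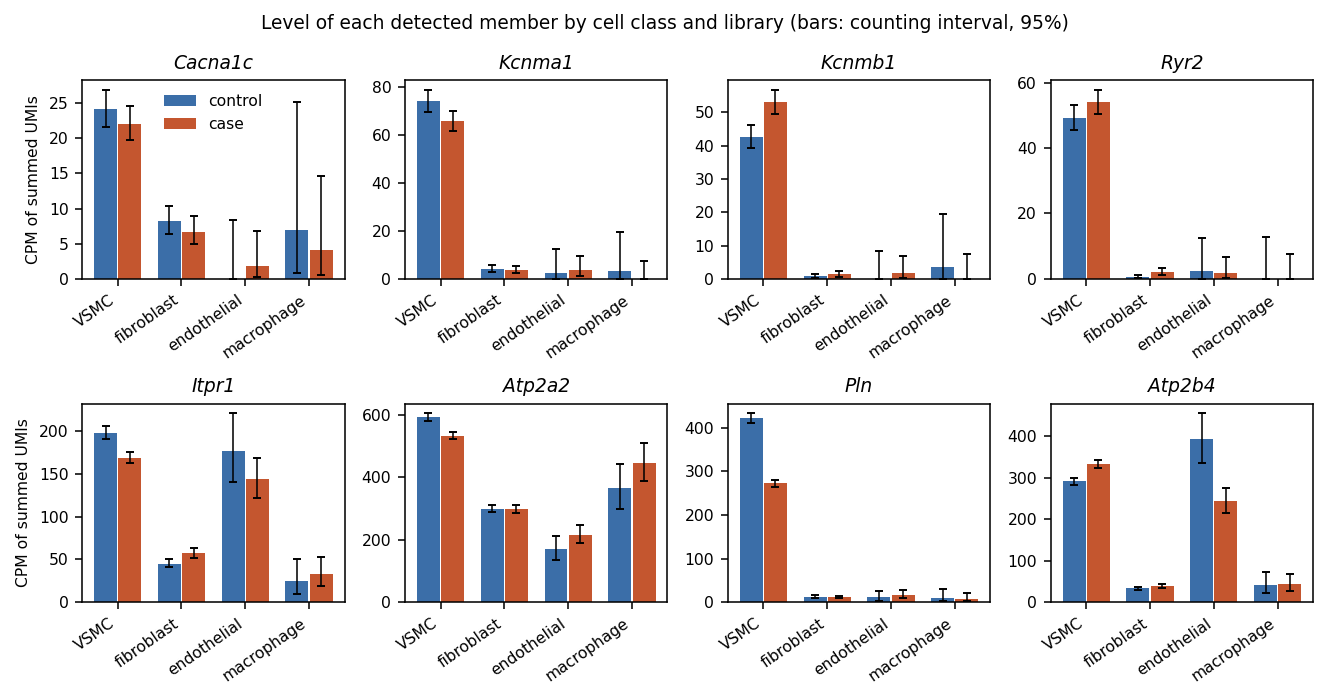
Level (CPM of summed UMIs, linear axes that start at 0) of the 8 detected genes in 4 cell classes of the control (blue) and case (orange) library, with exact counting intervals. Kcnma1, Kcnmb1, Ryr2 and Pln are high only in VSMCs among these 4 classes, while Atp2a2, Itpr1 and Atp2b4 are also seen in other classes; Pln has the largest gap between the libraries in VSMCs, from 422 to 272 CPM.

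Because the libraries differ in depth, shares of cells were also taken after cells had been thinned to 1000 UMIs, with shallower cells left out, so that 1177 of 1554 control VSMCs and 2650 of 2665 case VSMCs entered. Ryr2 was then found in 5.86% of control VSMCs (interval 4.59 to 7.36) and 4.72% of case VSMCs (3.94 to 5.59), against 29.1% and 24.1% without thinning in all gated cells. In case fibroblasts, which should lack this gene, the thinned share was 0.389%, and the unthinned share was 1.16% at a median depth of 5279 UMIs. Pln was found in 30.2% of control and 21.8% of case VSMCs after thinning, and in 2.14% and 1.40% of fibroblasts. The thinned shares thus separated VSMCs from fibroblasts in the same way as the summed levels. At 2000 UMIs per cell, a VSMC showed a median of 2 of the 8 detected genes in either library, and 4.56% of control and 7.44% of case VSMCs showed 0 of them. Sums over cells are therefore used from here on.

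In VSMCs of the case library, Pln was lower than in the control library, Kcnmb1 and Atp2b4 were somewhat higher, and Itpr1, Kcnma1 and Atp2a2 were somewhat lower. A difference of 1.5-fold was used as the limit. Of the 8 genes, 1 lay past it on the lower side and 0 on the higher side. Over all 10294 genes with at least 50 UMIs in VSMCs, 16.1% lay past the limit on the lower side and 6.29% on the higher side. A single gene of 8 is thus near the share of all genes. The median log2 ratio of case over control was -0.14 for the 8 genes and -0.14 for all genes tested. Scaling by trimmed mean of M-values (TMM) in place of total UMIs added 0.13 to each log2 ratio. Under TMM the ratio of Pln was -0.51, 0 of the 8 genes lay past the limit, and the shares of all genes were 9.71% higher and 10.8% lower. Relative to the median gene, Pln was at -0.49, Kcnmb1 at 0.46, Atp2b4 at 0.33 and Ryr2 at 0.27 on the log2 scale. Cacna1c, Kcnma1, Itpr1 and Atp2a2 lay between -0.09 and 0.01 on that scale, close to the median gene.

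**Figure D2:**
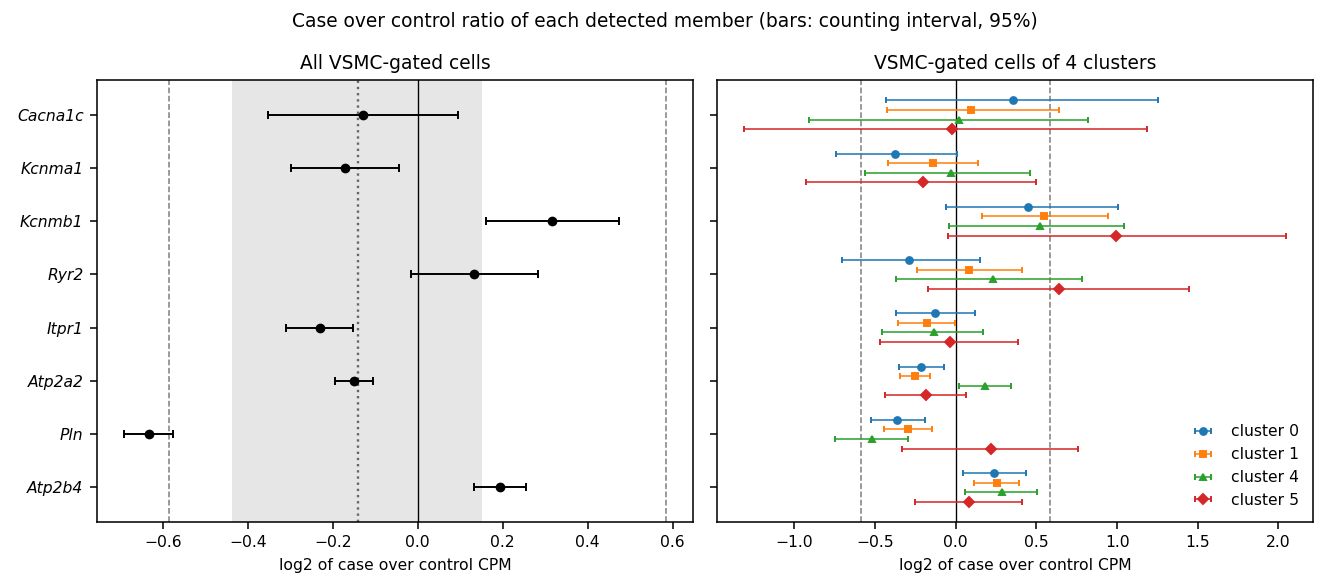
Log2 ratio of case over control CPM of the 8 detected genes in all VSMC-gated cells (left) and within 4 clusters (right), with exact counting intervals; dashed lines mark 1.5-fold, the grey band the quartiles of all genes and the dotted line their median. Pln (-0.63) is the gene past the dashed line on the left, and its values within clusters run from -0.52 to 0.22, none of them past the line.

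Calcium entry was represented by Cacna1c. Its level in VSMCs was 24.1 CPM in the control library (326 UMIs, interval 21.6 to 26.9) and 22.1 CPM in the case library (338 UMIs, interval 19.8 to 24.5). The intervals overlap, and the log2 ratio was -0.13 (from -0.35 to 0.09). A difference in Cacna1c was therefore not detectable at this depth. This is also the gene with the fewest UMIs among the 8, and its ratio moved to 0.17 when every cell was given equal weight.

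The subunits of the large-conductance potassium channel had log2 ratios of case over control on opposite sides of 0. Kcnma1 had 74.0 CPM in control VSMCs (999 UMIs) and 65.7 CPM in case VSMCs (1006 UMIs), a log2 ratio of -0.17 (from -0.30 to -0.04). Kcnmb1 had 42.6 CPM (575 UMIs) and 53.0 CPM (812 UMIs), a log2 ratio of 0.32 (from 0.16 to 0.47), or 1.25-fold higher in the case library. The counting intervals of both ratios left out 0, although relative to the median gene Kcnma1 was at -0.03. The number of Kcnmb1 UMIs per Kcnma1 UMI was 0.576 in control VSMCs and 0.807 in case VSMCs, a log2 change of 0.49 (from 0.29 to 0.69). This change does not depend on how the libraries are scaled, although such a ratio gives no number of subunits, since capture differs between genes. Kcna5, the voltage-gated potassium channel Kv1.5 of many arteries, had 0 UMIs in all 8977 barcodes. By counting error alone, a count of 0 allows up to 0.222 CPM in control and 0.196 CPM in case VSMCs, and up to 0.193% and 0.113% of cells with a UMI. Whether Kcna5 RNA could be captured and counted in these libraries was not tested.

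The 250 bases before the start of Kcnmb1 and Kcnma1 are shown because the pair encodes 1 channel and its ratio of UMIs differed between the libraries. They are given 5′ to 3′ from the RefSeq annotation of assembly GRCr8, a later build than the one the counts were made on, at chr10:19061849-19062098 and chr15:351675-351924, both on the plus strand. Capitals mark E-boxes (CANNTG) and GC boxes (GGGCGG on either strand).
Kcnmb1: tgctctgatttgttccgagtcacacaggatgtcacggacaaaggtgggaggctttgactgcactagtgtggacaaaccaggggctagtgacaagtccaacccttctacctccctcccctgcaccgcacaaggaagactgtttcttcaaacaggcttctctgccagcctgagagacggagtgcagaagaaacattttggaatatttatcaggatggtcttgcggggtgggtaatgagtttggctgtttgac
Kcnma1: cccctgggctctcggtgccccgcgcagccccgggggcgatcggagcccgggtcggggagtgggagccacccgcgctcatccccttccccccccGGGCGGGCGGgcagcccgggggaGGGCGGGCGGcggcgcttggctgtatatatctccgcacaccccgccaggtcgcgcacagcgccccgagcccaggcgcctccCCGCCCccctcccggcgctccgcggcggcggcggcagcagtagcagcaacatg
The Kcnma1 window held 5 GC boxes, which overlap in part, and had a GC content of 79.6%. The Kcnmb1 window held 0 GC boxes and 0 E-boxes at a GC content of 50.8%. Across 33469 promoter windows of this length the median GC content was 51.2%, 30.5% held a GC box and 65.5% an E-box. All 9 genes were matched by symbol, and of their windows 3 held a GC box and 6 an E-box. The CArG box, the element bound by serum response factor in many contractile genes, was searched on both strands and had a match in 0 of the 9 windows, against 1.5% of all windows. The MEF2 box had a match in 0 of the 9 and in 2.96% of all windows. These matches describe the letters of the windows and were not related to the levels.

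The release channels of the reticulum also differed from each other. Ryr2 had 49.2 CPM in control VSMCs (665 UMIs) and 54.0 CPM in case VSMCs (827 UMIs), a log2 ratio of 0.13 (from -0.02 to 0.28). Its thinned share of cells went the other way, from 5.86% to 4.72%, with intervals that overlap. Itpr1 had 198 CPM (2675 UMIs) and 169 CPM (2586 UMIs), a log2 ratio of -0.23 (from -0.31 to -0.15). The interval of Ryr2 included 0, and that of Itpr1 did not, although Itpr1 lay within 0.09 of the median gene. Ryr2 UMIs per Itpr1 UMI were 0.249 in the control library and 0.320 in the case library, a log2 change of 0.36 (from 0.19 to 0.53). In fibroblasts Itpr1 went the other way, from 45.2 CPM in the control library (365 UMIs) to 57.5 CPM in the case library (419 UMIs), a log2 ratio of 0.35 (from 0.14 to 0.55). The clusters called fibroblast held different shares of the libraries. Over all kept cells, cluster 2 held 577 control and 605 case cells, and cluster 3 held 106 and 786. Cluster 7 held 50 and 246, and cluster 14 held 18 and 17. The part of this mixture in the fibroblast Itpr1 ratio was not tested. Ryr2 in fibroblasts rested on 4 control and 15 case UMIs.

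Among the 8 genes in VSMCs, the phospholamban gene had the largest difference between the libraries. Pln had 422 CPM in control VSMCs (5698 UMIs, interval 411 to 433) and 272 CPM in case VSMCs (4167 UMIs, interval 264 to 280). The log2 ratio was -0.63 (from -0.69 to -0.58), or 1.55-fold lower in the case library. Its place was at percentile 13.8 of all genes tested, counted from the lowest ratio, so it was lower than most genes but not at the extreme. Atp2a2, the pump that phospholamban inhibits, had 591 CPM (7987 UMIs) and 533 CPM (8160 UMIs), a log2 ratio of -0.15 (from -0.20 to -0.11), which is that of the median gene. Pln UMIs per Atp2a2 UMI were 0.713 in the control library and 0.511 in the case library, a log2 change of -0.48 (from -0.56 to -0.41). In fibroblasts Pln had 13.3 and 11.9 CPM, and Atp2a2 had 299 CPM in each library, with a log2 ratio of 0.00 (from -0.08 to 0.08).

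Several other measures differed between the libraries along with Pln in VSMCs. The summed level of the 6 VSMC markers was 25688 CPM in the control library and 20578 CPM in the case library, with Acta2 at a log2 ratio of -0.89 and Tagln at -0.48, but Myh11 at 0.05 and Cnn1 at 0.09. The 4 skeletal muscle markers summed to 68.2 and 36.2 CPM in VSMCs, mostly from Acta1 with 695 and 370 UMIs. Ckm had 176 and 129 UMIs, Tnnt3 42 and 53, and Mylpf 8 and 2. Acta1 was also among the leading genes of VSMC cluster 4. The 4 cardiac muscle markers summed to 15.7 and 10.2 CPM, nearly all from Actc1, with Nppa at 0 in both libraries, Myh6 at 2 and 5 UMIs and Tnnt2 at 1 and 0 UMIs. The part of the VSMC and skeletal muscle markers in the Pln ratio was not tested. The 7 fibroblast markers summed to 3685 and 3411 CPM in VSMCs. Of these, Col1a1 had a log2 ratio of -0.28, Col3a1 -0.07, Clec3b -0.05, Lum 0.08 and Dcn 0.28. Pdgfra was at 1.47 (15 and 47 UMIs) and Dpt at 1.61 (165 and 571 UMIs) in VSMCs. Other lists were low there, with endothelial markers at 4.96 and 7.83 CPM, macrophage markers at 10.4 and 11.7 CPM, Schwann markers at 7.63 and 14.1 CPM, neuron markers at 4.44 and 4.77 CPM, red cell markers at 7.48 and 16.1 CPM, and neutrophil markers at 0.370 and 0.588 CPM. T cell markers had 1 UMI in the control library and 0 in the case library, which allows up to 0.196 CPM. The pericyte list, which shares Kcnj8 and Abcc9 with the channel list below, summed to 331 and 360 CPM, with Rgs5 at 12 UMIs in each library and Higd1b at 0.

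The windows before Pln and Atp2a2 are shown as those of the inhibitor and its pump, with the same marks, at chr20:33172244-33172493 and chr12:39733269-39733518 of GRCr8, both on the plus strand.
Pln: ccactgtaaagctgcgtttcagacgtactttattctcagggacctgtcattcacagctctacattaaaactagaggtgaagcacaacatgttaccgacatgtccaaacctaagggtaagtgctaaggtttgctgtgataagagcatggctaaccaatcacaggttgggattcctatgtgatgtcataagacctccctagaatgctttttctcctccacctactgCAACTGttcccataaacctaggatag
Atp2a2: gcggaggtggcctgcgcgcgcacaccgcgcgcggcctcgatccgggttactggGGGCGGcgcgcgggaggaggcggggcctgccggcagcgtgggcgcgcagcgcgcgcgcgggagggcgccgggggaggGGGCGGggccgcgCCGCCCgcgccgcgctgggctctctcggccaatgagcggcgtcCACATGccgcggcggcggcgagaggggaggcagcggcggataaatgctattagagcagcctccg
The Atp2a2 window held 3 GC boxes and 1 E-box at a GC content of 80.0%. The Pln window held 0 GC boxes and 1 E-box at a GC content of 44.0%.

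Atp2b4, a calcium pump of the plasma membrane, was higher in case VSMCs. It had 291 CPM in the control library (3932 UMIs, interval 282 to 300.4) and 333 CPM in the case library (5099 UMIs, interval 324 to 342), a log2 ratio of 0.19 (from 0.13 to 0.25). Per UMI of Atp2a2, Atp2b4 had 0.492 and 0.625 UMIs, a log2 change of 0.34 (from 0.27 to 0.42). Such a ratio of UMIs gives no number of pumps. Atp2b1, another pump of the plasma membrane, from the wider list below, was lower in case VSMCs. It had 65.6 CPM in the control and 57.8 CPM in the case library, a log2 ratio of -0.18 (from -0.32 to -0.05). In endothelial cells Atp2b4 went the other way than in VSMCs. It had 392 CPM in the control library (173 UMIs in 58 cells) and 243 CPM in the case library (260 UMIs in 233 cells), a log2 ratio of -0.69 (from -0.97 to -0.40). This was percentile 19.2 of the genes tested in endothelial cells, whose median log2 ratio was -0.06 and lower quartile -0.55. TMM scaling adds 0.26 to each ratio in this class. The 2 clusters called endothelial held different shares of the libraries, 54 control and 161 case cells in cluster 8 and 10 control and 157 case cells in cluster 10. Cluster 13, which met the limits of more than 1 class, had Cdh5 among its leading genes and held 69 control and 0 case cells. The part of this mixture in the endothelial Atp2b4 ratio was not tested.

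Within clusters of VSMCs that held cells of both libraries, the Pln difference was smaller than the pooled one. The clusters were made from expression, and clusters 0, 1 and 4 each held mostly cells of 1 library. Clusters 0, 1, 4 and 5 had at least 50 gated cells of each library. In cluster 0, Pln had 446 CPM in 106 control cells and 348 CPM in 1382 case cells, a log2 ratio of -0.36 (from -0.53 to -0.19). In cluster 1 it had 235 and 192 CPM, a log2 ratio of -0.30 (from -0.44 to -0.15). In cluster 4 it had 483 CPM in 698 control cells and 338 CPM in 56 case cells, a log2 ratio of -0.52 (from -0.75 to -0.29). The libraries thus differed in the same direction in these 3 clusters. The median log2 ratio of all genes was -0.11, -0.18 and -0.09 in clusters 0, 1 and 4, and the Pln interval of cluster 1 included that median. The level of Pln also differed between the 4 clusters of the control library, from 154 to 483 CPM. The part of cluster make-up in the pooled ratio of -0.63 was not tested. Cluster 5, whose control cells had a median of 1400 UMIs, gave 154 and 179 CPM on 72 and 50 UMIs, with an interval that included 0 (log2 0.22, from -0.33 to 0.76). In none of the 4 clusters did Pln pass 1.5-fold.

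Kcnmb1 and Atp2b4 were higher in case cells within these clusters. Kcnmb1 was higher in the case library in each of the 4, with log2 ratios of 0.45, 0.54, 0.52 and 0.99 in clusters 0, 1, 4 and 5, but the interval left out 0 only in cluster 1 (from 0.16 to 0.94). In cluster 5 the Kcnmb1 value lay past 1.5-fold but rested on 16 control and 19 case UMIs. Atp2b4 was higher in the case library in each of the 4 clusters as well, with log2 ratios of 0.24, 0.25, 0.29 and 0.08 and intervals that left out 0 in clusters 0, 1 and 4. Both genes thus had ratios above 0 in each of these 4 clusters, with intervals that included 0 in 3 of them for Kcnmb1 and in 1 for Atp2b4. Atp2a2 was lower in clusters 0 (-0.21) and 1 (-0.25), with intervals that left out 0, and higher in cluster 4 (0.18, from 0.02 to 0.35). In cluster 5 the Atp2a2 ratio was -0.18, with an interval that included 0 (from -0.44 to 0.06). Itpr1 lay between -0.18 and -0.04 in the 4 clusters, with intervals that included 0 in clusters 0, 4 and 5. In cluster 1 its interval ran from -0.36 to -0.001. Ryr2 ran from -0.29 in cluster 0 to 0.64 in cluster 5, the latter past 1.5-fold on 29 control and 27 case UMIs, with intervals that all included 0, and the Cacna1c and Kcnma1 intervals also included 0 in each cluster.

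VSMCs were next divided into tertiles by the share of their UMIs on the 6 VSMC markers, among cells with at least 2000 UMIs and separately in each library. Pln was higher at a higher share in both libraries. In the control library it had 283 CPM in the lowest, 466 in the middle and 500 CPM in the highest tertile, and in the case library 180, 266 and 361 CPM. Median depth also differed between these tertiles, at 10670, 13431 and 12963 UMIs in the control and 4892, 5654 and 6020 UMIs in the case library. The part of depth in these levels was not tested. The log2 ratio of the highest over the lowest tertile was 0.82 (from 0.71 to 0.93) in the control and 1.00 (from 0.88 to 1.12) in the case library. For all genes the median of this ratio was -0.03 in the control and -0.02 in the case library, and 7.53% and 9.06% of genes lay past 1.5-fold on the higher side. The highest case tertile, with a median share of 2.72% and a median depth of 6020 UMIs, had 361 CPM. The middle control tertile, with a median share of 2.49% and a median depth of 13431 UMIs, had 466 CPM. The part of the marker share in the Pln ratio was not tested. Tertiles were cut in each library, so paired tertiles had unlike median shares. These were 1.64%, 2.49% and 3.28% in the control and 1.29%, 1.95% and 2.72% in the case library. Within the lowest, middle and highest tertiles the log2 ratio of case over control for Pln was -0.65, -0.81 and -0.47. For Ryr2 this ratio changed sign, at -0.30 (from -0.58 to -0.02), 0.43 (from 0.18 to 0.69) and 0.11 (from -0.15 to 0.36). For Kcnma1 it was -0.38, -0.24 and 0.10, with an interval that included 0 in the highest tertile.

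Kcnmb1 and Itpr1 were also higher in the highest tertile of both libraries. Kcnmb1 had 32.7 CPM in the lowest and 51.3 CPM in the highest control tertile, and 38.4 and 60.0 CPM in the case library, log2 ratios of 0.65 and 0.64. Itpr1 had 178 and 220 CPM in the control library and 140 and 198 CPM in the case library, log2 ratios of 0.31 and 0.50. Atp2b4 was higher in the highest tertile by 0.14 in the control and 0.40 in the case library on the log2 scale. Kcnma1 had 81.0 CPM in the lowest and 62.9 CPM in the highest control tertile, a log2 ratio of -0.37 (from -0.60 to -0.13), while in the case library it was 0.12 (from -0.11 to 0.35). Atp2a2 was lower in the highest control tertile by a log2 ratio of -0.19, and in the case library the interval of its ratio included 0. The pore and beta subunits of the potassium channel thus went in different directions along the marker share in control VSMCs. Cacna1c had log2 ratios of 0.39 in each library, with intervals from -0.03 to 0.82 and from 0.00 to 0.79, and Ryr2 had intervals that included 0 in both.

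**Figure D3:**
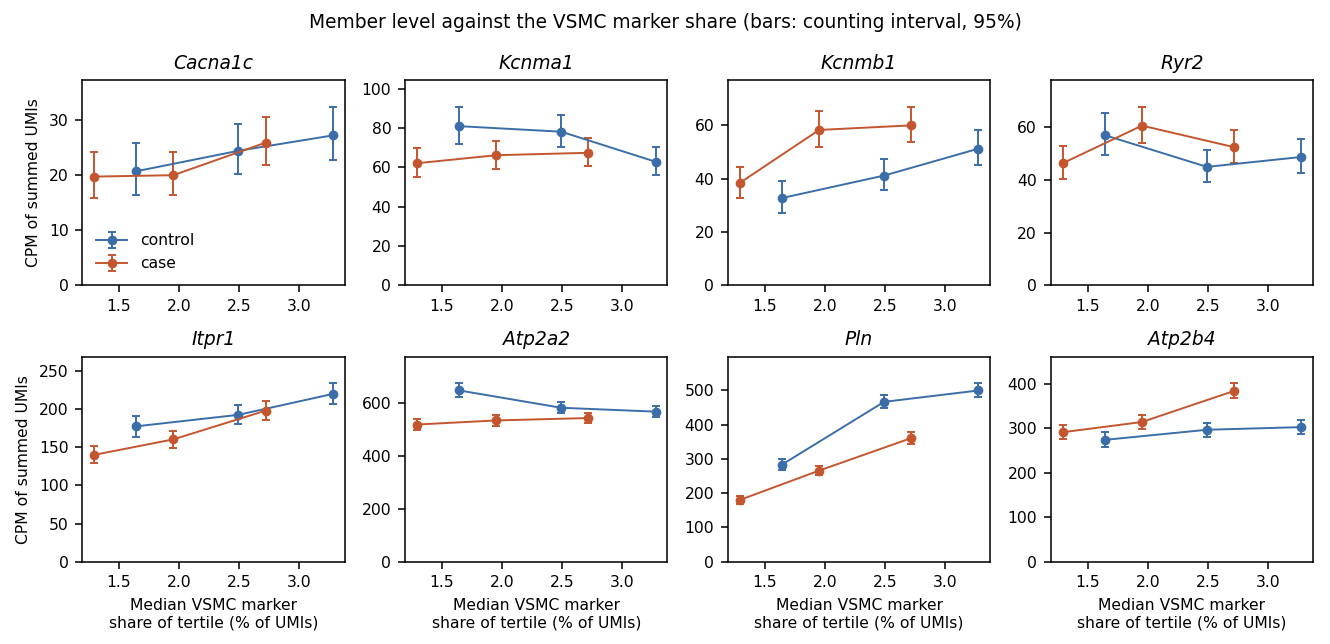
Level (CPM of summed UMIs, axes that start at 0) of the 8 detected genes in tertiles of VSMCs by their share of UMIs on 6 VSMC markers, plotted at the median share of each tertile, for the control (blue) and case (orange) library with exact counting intervals. From the lowest to the highest tertile Pln goes from 283 to 500 CPM in the control and from 180 to 361 CPM in the case library. The case line lies below the control line where the shares overlap, and depth differs between the libraries there.

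Depth within a library also went with some levels. Among VSMCs with at least 2000 UMIs, case cells above the median depth had 299 CPM of Pln and those below it 227 CPM, a log2 ratio of 0.40 (from 0.30 to 0.50), while the control library had 432 and 417 CPM. Median depth was 9254 UMIs in the shallower control cells and 7006 UMIs in the deeper case cells, and the part of depth in the Pln ratio was not tested. Kcnmb1 had 57.7 and 44.3 CPM in deeper and shallower case cells, and Ryr2 had 50.2 and 59.2 CPM, while in the control library the log2 ratios of deeper over shallower cells were 0.04 (from -0.22 to 0.30) and -0.10 (from -0.33 to 0.14). Itpr1 and Atp2a2 were higher in deeper cells of both libraries, with log2 ratios of 0.20 in each library for Itpr1 and of 0.12 in the control and 0.14 in the case library for Atp2a2. The median ratio over all genes is not given here for the division by depth. With cells under 2000 UMIs left out, the ratio of case over control was -0.64 for Pln, 0.32 for Kcnmb1 and 0.18 for Atp2b4.

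The study raised Notch1 as a gene that might be related to synthetic VSMCs, so VSMCs with at least 2000 UMIs were also divided by whether they had a Notch1 UMI. Pln was lower in cells with Notch1 in both libraries, at 369 CPM against 472 CPM in the control library and 226 CPM against 297 CPM in the case library, log2 ratios of -0.35 (from -0.43 to -0.28) and -0.40 (from -0.50 to -0.30). Atp2a2 had log2 ratios of 0.01 in each library, with intervals from -0.05 to 0.08 and from -0.06 to 0.07. Kcnmb1 had 41.2 CPM against 43.3 CPM in the control library, and 43.7 CPM against 57.3 CPM in the case library, where the log2 ratio was -0.39 (from -0.63 to -0.16). Itpr1 was also lower in cells with Notch1 in the case library (log2 -0.16, from -0.28 to -0.03). Atp2b4 was lower in such cells of the control library (log2 -0.14, from -0.23 to -0.04). In the other library the interval of each included 0. Cells with a Notch1 UMI were deeper, at a median of 14932 against 11506 UMIs in the control library and 6178 against 5351 in the case library. Spp1 encodes the matrix protein osteopontin. In the 58 control cells with at least 0.1% of UMIs on Spp1, Pln had 283 CPM against 435 CPM in the rest. In the 123 such case cells it had 256 against 275 CPM, with an interval that included 0 (log2 -0.10, from -0.33 to 0.11). The median VSMC marker share of cells with Spp1 was lower, at 1.67% against 2.51% in the control and 1.66% against 1.97% in the case library. For cells with Notch1 it was 2.41% against 2.56% and 1.80% against 2.01%. The part of this share was not tested. The median ratio over all genes is not given here for the divisions by Notch1 and Spp1.

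The wider calcium and potassium handling list held 43 further genes, of which 30 had at least 50 UMIs in VSMCs. Of these, 0 lay past 1.5-fold on the higher side and 4 on the lower side, and the median log2 ratio was -0.18, against -0.14 for all genes. The shares of all genes were 6.29% and 16.1%, so 4 of 30 is no more than the share of all genes on the lower side. The 4 lower genes were Kcnab1, Cacnb3, Calr and Kcnq1. Kcnab1, a beta subunit of voltage-gated potassium channels, had 18.6 CPM in the control and 10.1 CPM in the case library, a log2 ratio of -0.89 (from -1.19 to -0.59). Cacnb3, a beta subunit of voltage-gated calcium channels, had 12.1 and 6.59 CPM, a log2 ratio of -0.87 (from -1.24 to -0.51). Calr encodes calreticulin, which buffers calcium and folds proteins in the reticulum, and had 567 and 341 CPM, a log2 ratio of -0.73 (from -0.78 to -0.68). Kcnq1, a voltage-gated potassium channel, had 19.2 and 11.9 CPM, a log2 ratio of -0.69 (from -0.97 to -0.41).

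Among the 6 most abundant other genes of that list, Abcc9 and Kcnk3 were on the higher side, as was Kcnmb1. Abcc9, the regulatory subunit of the vascular ATP-sensitive potassium channel, had 169 and 220 CPM (log2 0.38), and Kcnk3, a background potassium channel, had 136 and 170 CPM (log2 0.32). Casq2, the calcium-binding protein calsequestrin of the reticulum, had 412 and 306 CPM (log2 -0.43). Pkd2, a calcium-permeable cation channel, had 251 and 194 CPM (log2 -0.37), Mrvi1, a partner of the inositol trisphosphate receptor, had 275 and 225 CPM (log2 -0.29), and Cacna2d1, an auxiliary calcium channel subunit, had 105 and 102 CPM (log2 -0.04). By role, the median log2 ratio was 0.05 over 8 potassium channel genes, -0.26 over 6 genes of voltage-gated calcium entry, -0.30 over 3 pumps and exchangers and -0.35 over 7 store-operated and TRP channel genes. These medians describe a few genes each and were not tested.

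The gene most like each member was sought among 9003 genes, by Pearson's r of log2(CPM + 1) over 8 groups, the VSMC, fibroblast, endothelial and macrophage cells of each library. The groups of 1 library share that library, and the classes differ in depth, so these values are descriptions. Each value is the highest among 9003 genes over only 8 groups, so a high r follows from the choice itself. Pln was most like Ttc27 (r = 0.996), Ryr2 like Hspb6 (0.994), Kcnma1 like Adcy5 (0.993), and Kcnmb1 like Kcnk3 (0.992), itself a potassium channel of the wider list. For Kcnmb1, Slc22a2 came next with an r that was also 0.992. Atp2b4 was most like Tinagl1 (0.992), Atp2a2 like Phtf2 (0.991), Cacna1c like Wfs1 (0.988) and Itpr1 like Myo1d (0.985).

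**Figure D4:**
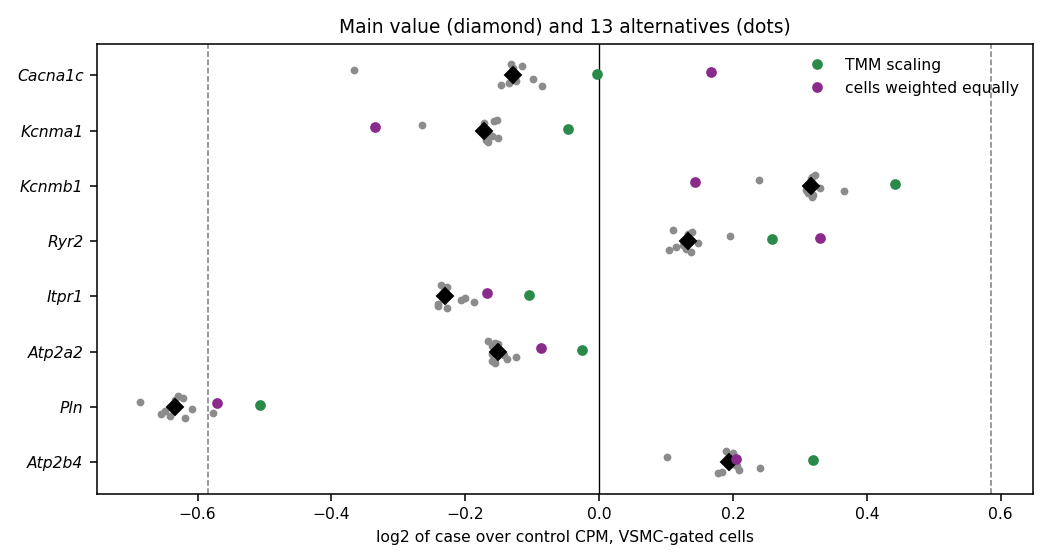
Log2 ratio of case over control CPM in VSMC-gated cells for each detected gene as reported (diamond) and under 13 other settings of filter, gate, doublets, scaling and depth (dots), with dashed lines at 1.5-fold. Pln stays between -0.69 and -0.51, Kcnmb1, Ryr2 and Atp2b4 stay above 0, and Cacna1c runs from -0.37 to 0.17.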

How the data were processed

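The authors deposited raw counts of UMIs, per gene and per barcode, made with Cell Ranger 3.1.0 per the file headers; the submitters' processing notes name build Rnor_6.0. Whether reads had been down-sampled when the libraries were joined is not given in the sources used here. Which barcodes belong to which library was read from the barcode suffix and the cell numbers the study gives before quality control, and a swapped assignment would turn every direction. Barcodes with over 20% mitochondrial UMIs were removed, as were those over 2 SD from their library's mean of log10 UMIs or log10 genes, and those over 3 robust SD off a log-log line of genes against UMIs. Cells were gated by the share of UMIs on marker lists, with limits of 0.6% for VSMC, 1.5% for fibroblast, 0.1% for endothelial and macrophage markers, set after seeing the data; cells that met several limits were left out, as were the few gated as Schwann or T cells. At least 3 markers of a VSMC or fibroblast and 2 of an endothelial cell or macrophage had to be found. Fibroblast markers were Dcn, Lum, Col1a1, Col3a1, Pdgfra, Dpt and Clec3b, endothelial markers Cdh5, Cldn5, Sox17, Vwf, Tie1, Egfl7 and Emcn, and macrophage markers Cd68, Ncf4, C1qa, C1qb, C1qc, Csf1r, Mrc1 and Cd163.

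UMIs were summed per class and library and scaled to 1000000 (CPM). With 1 library per group no test was run. Intervals are exact Poisson, Clopper-Pearson or conditional binomial. Genes needed 50 UMIs over both libraries to be counted. The members, the wider list and the comparisons were chosen with earlier results of these data known; the clusters, the tertiles, Notch1 and depth splits were added after seeing the data. Named genes were all members, list genes past 1.5-fold, the 6 most abundant others and the single gene most like each member. Atp2b1 was named in addition, beside Atp2b4. Clusters used 2000 variable genes, 30 principal components, 20 neighbours and Leiden resolution 0.8, without the members and the wider list. Scrublet called 6 control and 0 case cells, too few in either library for the caller to have worked, and doublets were left in, with the highest 5% of scores removed as an alternative. The ratio and interval code was tested on simulated data. TMM factors came from edgeR 4.0.16 in R 4.3.3. Clustering and Scrublet ran in scanpy 1.11.5 with leidenalg 0.10.2, and all else in Python 3.11.15 with scipy 1.17.1 and numpy 2.4.6. Promoter windows came from RefSeq, assembly GRCr8. Results under 11 planned and 2 added alternatives are given below.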

Additional observations from a re-analysis of the deposited data

Results flagged for a closer look

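Itpr1, the type 1 inositol trisphosphate receptor, had ratios of case over control in opposite directions in VSMCs and fibroblasts, with counting intervals that both left out 0. The log2 ratio was -0.23 in VSMCs and 0.35 in fibroblasts. Relative to the median gene of each class, Itpr1 was at -0.09 in VSMCs, close to that gene, and at 0.44 in fibroblasts. Among VSMCs of single clusters, the Itpr1 interval included 0 in clusters 0, 4 and 5, and in cluster 1 it ran from -0.36 to -0.001. The share of all genes with such opposite intervals is not given here. The difference between the classes was not tested, since each group has 1 library.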

How the results depend on the processing

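No paired analysis was possible because each group has 1 library and no test was run. Of 104 values of the 8 detected genes in VSMCs under 13 alternatives, 92 stayed within the counting interval of the reported value, 12 moved out of it and 0 of a called gene reversed. Of the 13, removing Scrublet calls took out no VSMC or fibroblast and dropping the minimum of UMIs leaves each ratio as it is, so neither could move these values. In fibroblasts 74 of 78 stayed and 4 moved. Pln (-0.69 to -0.51), Kcnma1, Itpr1 and Atp2a2 stayed below 0 and Kcnmb1, Ryr2 and Atp2b4 above 0 in all 13 alternatives, while Cacna1c was above 0 in 1 of them. The alternatives did not include the tertiles, between which the ratios of Ryr2 and Kcnma1 changed sign and whose marker shares differed between the libraries.

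The count of members past 1.5-fold lower was 1 as reported and 0 under TMM scaling, under the stricter gate and with cells weighted equally. The members' median log2 ratio was -0.14 as reported, -0.014 under TMM and 0.028 with cells weighted equally. In the wider list, 0 genes were past 1.5-fold higher as reported, 1 with cells weighted equally and 2 with no minimum of UMIs, and the 4 on the lower side became 8 with no minimum, where more genes of few UMIs were counted and 24.2% of all genes were past the limit lower and 15.4% higher. The cause of the other shifts was not tested. The barcodes under 2000 UMIs, 501 of 1554 control VSMCs, and the different clusters of the libraries limit every comparison, and counting intervals leave out the variation between rats.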
